A study of Mus musculus with 17 samples.

Results

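The 10 genes followed here in mouse uterus have been reported elsewhere as targets of the transcription factor EGR1: Kit, Pdgfa, Pdgfb, Icam1, Cd44, F3, Tgfb1, Thbs1, Sphk1 and Hpse. They were taken by symbol from the platform annotation of the array, and the brightest probe stood for each gene. All 10 passed a filter on dim probes that kept 14737 of the 19057 gene symbols on the array. The annotation maps 1 probe to Pdgfa, Icam1, F3, Tgfb1 and Thbs1, 2 to Pdgfb and Hpse, 3 to Kit and Sphk1, and 9 to Cd44. Most stood well above the array background, whereas Tgfb1, Thbs1, Hpse and F3 were dim, with mean log2 signals of 8.48, 8.45, 8.40 and 8.25 against an array median of 8.20.

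EGR1 is a zinc-finger protein made within minutes to hours of a stimulus, and it binds short GC-rich DNA elements in the promoters of its targets. In the uterus its gene is induced quickly by estrogen, the hormone that drives growth of the uterine lining. The proteins encoded by the 10 genes act largely outside the nucleus: growth factors and a receptor, adhesion molecules, matrix and clotting proteins, and enzymes.

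The study profiled total RNA from uteri of mice labelled as Egr1 knockout (KO) or wild type (WT) on Illumina MouseWG-6 v2 bead arrays, before estradiol (E2, time 0 h) and 3, 6 and 24 h later. There were 2 arrays in each of the 8 groups of genotype and time, except WT at 3 h, which had 3, and 17 in all. The label for the knockout names only the gene, and every group other than the 0 h groups shares the E2 treatment. No group without E2 was sampled at 3, 6 or 24 h. In the changes from 0 h, E2 thus cannot be told apart from handling or time of day. The labels give no further detail of the knockout allele, and neither strain, age, ovariectomy, vehicle nor E2 dose. No label ties the arrays of a group to different animals. The p-values therefore reflect the spread between these arrays alone, and that spread may be technical.

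Values are log2 signals already normalized between arrays, and a difference of 1 is a 2-fold change relative to the other genes of the array. Arrays of a group correlated at 0.990 to 0.997. The uterine genes Esr1, Pgr, Wnt7a, Msx1 and Hoxa11 lay above the array median on all 17 arrays, Foxa2 on 8, and Hoxa10 was not among the genes kept. The KO 0 h arrays lay far apart in blood-cell markers. Relative to all arrays, their mean of 11 macrophage markers ranged from 0.15 to 0.96, against -0.04 to -0.01 in WT at 0 h. Their mean of 9 granulocyte markers ranged from -0.02 to 0.86, against -0.08 to -0.07 in WT at 0 h. The granulocyte markers were dim, with mean signals of 8.13 to 8.45. At 0 h their KO minus WT differences ranged from 0.05 to 1.64, with a median of 0.24. All 11 macrophage markers had higher group means in KO than in WT at 0, 3 and 6 h, with median differences of 0.60, 0.27 and 0.33. At 24 h 1 of the 11 did, with a median of -0.26. By limma 1, 0, 0 and 1 of them passed at the 4 times, beside 4.43%, 4.23%, 0.631% and 8.35% of all genes. The mean of adipocyte markers, 7 of 8 measured, ranged from 1.77 to 1.86 in KO and 0.81 to 1.34 in WT at 0 h. There 0 of the 7 passed KO against WT by limma, beside 4.43% of all genes. An unadjusted p under 0.05 was found for 4, a level at which the share of all genes was not counted. Compared with 0 h, 6 or 7 of the 7 were lower by the test at each later time in each genotype, with medians of -3.14 to -1.41, where 37.9% to 46.7% of all genes passed, and the KO arrays at 6 h ranged from -0.81 to 0.57. Their part in the 0 h differences and in the changes from 0 h below was not tested. Because whole tissue was measured, fewer cells of a type and less RNA per cell cannot be told apart.

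Egr1 itself was measured by the probe ILMN_2662926, but where it sits with respect to the disruption is not stated in the labels, and its level is no check of the genotypes. In WT its signal was 12.24 and 12.51 at 0 h, 14.87, 14.94 and 14.56 at 3 h, 13.85 and 13.97 at 6 h, and 11.39 and 12.09 at 24 h. In KO it was 13.48 and 13.63, then 14.69 and 14.59, then 14.74 and 14.55, then 13.51 and 13.27. The signal was not lower in KO than in WT at any time by the test: KO minus WT was 1.18 at 0 h (limma, adjusted p = 0.00302, and 0.0649 in a fit of those arrays alone), -0.15 at 3 h (0.695), 0.73 at 6 h (0.0924) and 1.65 at 24 h (0.000147). All directions below are therefore between arrays labelled KO and arrays labelled WT.

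Promoter windows, which run from 250 bases before to 50 bases after an annotated start, were taken from RefSeq (GRCm38.p6) for 8 of the 10 genes, 14 windows in all, and Pdgfb and Thbs1 had none. The windows were searched on both strands for the EGR1 consensus GCGNGGGCG, for a looser form of it, GNGNGGGNG, for the SP1 box GGGCGG, which can overlap both, and for the estrogen response element, GGTCA and TGACC with 3 bases between them. Of all 32851 windows, 5.55% held the consensus, 39.6% the looser form, 35.7% the SP1 box and 0.07% the estrogen response element. Among the 8 genes, Tgfb1 held the consensus once, on the minus strand and starting 122 bases upstream of the start. The looser form was in a window of 7 of them, the SP1 box in a window of 7, and the estrogen response element in 0. These counts are per gene, with a match in any of its windows, and Kit, Pdgfa and Sphk1 have several windows. The shares above are per single window, so the counts cannot be set directly against them. The windows of 3 genes follow, 5′ to 3′, with matches to the EGR1 consensus or its looser form in capitals: Kit, which differed most steadily between the genotypes, Tgfb1, with the consensus, and Icam1, which changed most after E2 in WT and has neither form. A match is a run of letters, not evidence that EGR1 binds there.
Kit (chr5:75574737-75575036, plus strand): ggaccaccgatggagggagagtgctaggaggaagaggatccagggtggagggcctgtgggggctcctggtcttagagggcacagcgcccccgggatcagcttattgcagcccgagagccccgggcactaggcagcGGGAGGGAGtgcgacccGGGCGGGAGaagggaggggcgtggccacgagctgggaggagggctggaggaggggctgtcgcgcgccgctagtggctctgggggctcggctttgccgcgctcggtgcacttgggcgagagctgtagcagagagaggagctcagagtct
Tgfb1 (chr7:25686752-25687051, plus strand): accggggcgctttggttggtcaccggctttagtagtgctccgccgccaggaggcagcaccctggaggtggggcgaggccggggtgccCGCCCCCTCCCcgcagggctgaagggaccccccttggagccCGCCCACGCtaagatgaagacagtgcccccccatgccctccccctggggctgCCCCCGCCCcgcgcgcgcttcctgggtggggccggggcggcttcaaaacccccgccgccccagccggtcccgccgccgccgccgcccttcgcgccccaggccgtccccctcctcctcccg
Icam1 (chr9:21015690-21015989, plus strand): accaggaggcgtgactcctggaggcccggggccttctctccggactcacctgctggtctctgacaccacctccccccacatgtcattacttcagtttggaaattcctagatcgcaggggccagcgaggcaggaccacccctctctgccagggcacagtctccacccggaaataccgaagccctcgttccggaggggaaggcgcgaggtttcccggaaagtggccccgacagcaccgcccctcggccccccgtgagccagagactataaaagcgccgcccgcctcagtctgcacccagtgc

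The first question was whether the 10 genes differ between KO and WT uteri at each time. Kit was lower in KO at 3, 6 and 24 h, and lay lower at 0 h without passing the test. Pdgfb was lower at 3 h, Icam1 was higher before E2 and slightly lower at 3 and 24 h, and the remaining genes gave small or no differences. Of the called differences, only those of Kit at 3 and 24 h and of Pdgfb at 3 h did not depend on any single array. At 0 h 1 of the 10 genes passed the test, higher in KO, where 4.43% of all genes tested passed. At 3 h 4 passed, all lower in KO, against 4.23% of all genes. At 6 h 1 passed, lower, against 0.631%, and at 24 h 3 passed, 1 higher and 2 lower, against 8.35%. The median KO minus WT difference of the 10 genes was 0.01 at 0 h, -0.18 at 3 h, 0.01 at 6 h and -0.03 at 24 h, beside medians over all genes of 0, -0.01, -0.01 and 0. At 3 h 1 of the 10 lay above 0, as did 48% of all genes. The KO and WT arrays did not overlap for 4, 5, 3 and 6 of the 10 genes at the 4 times, and for 44.5%, 32.7%, 43.8% and 59.5% of all genes.

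**Figure D1:**
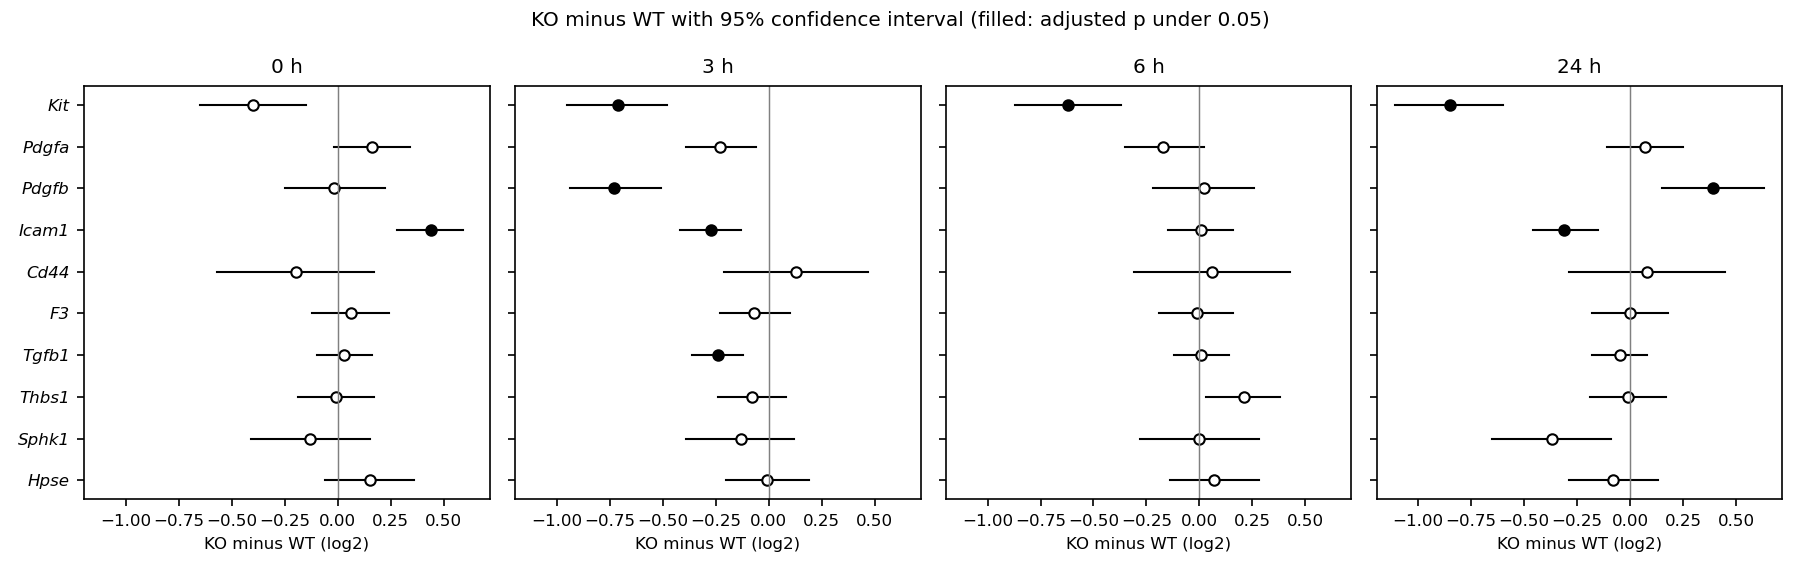
KO minus WT difference of each gene (log2, horizontal axis) at 0, 3, 6 and 24 h, with 95% confidence intervals from limma; filled points have an adjusted p under 0.05. Kit lies left of 0 at every time, from -0.40 at 0 h to -0.85 at 24 h, and Pdgfb stands at -0.73 at 3 h and at 0.39 at 24 h.

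Kit encodes the receptor tyrosine kinase for stem cell factor and is carried by mast cells, among other cells. Its signal in WT was 10.42 and 10.14 at 0 h, 11.41, 11.20 and 11.45 at 3 h, 11.50 and 11.42 at 6 h, and 10.18 and 10.27 at 24 h. In KO it was 9.93 and 9.83, then 10.73 and 10.55, then 10.97 and 10.71, then 9.49 and 9.26. At each of the 4 times both KO arrays lay below all WT arrays. KO was lower than WT by a log2 difference of -0.71 ± 0.11 (SE) at 3 h, 1.64-fold (limma, adjusted p = 0.00317), by -0.62 ± 0.12 at 6 h, 1.54-fold (0.0328), and by -0.85 ± 0.12 at 24 h, 1.81-fold (0.000799). At 0 h the difference was -0.40, with a 95% interval of -0.65 to -0.15, and did not pass the test (0.0735). Without WT 0 h replicate 2 it was -0.54 and passed (0.0198). The call at 6 h was lost without KO 6 h replicate 2 (-0.49, adjusted p = 0.313), WT 6 h replicate 1 (-0.58, 0.317) or WT 6 h replicate 2 (-0.66, 0.208) and in a fit of those groups alone (0.125), while those at 3 and 24 h passed with any array left out.

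Within each genotype Kit rose and then returned. The rise from 0 h was 1.07 at 3 h and 1.18 at 6 h in WT (limma, adjusted p = 1.74e-06 and 2.34e-06), and 0.76 and 0.96 in KO (0.000129 and 1.21e-05). At 24 h the WT level was back at its start, with a change of -0.05 (95% interval -0.31 to 0.20), and KO had fallen below its own start by -0.50 (0.00265). The order of the group means was WT 6 h (11.46 ± 0.05, SD), WT 3 h (11.35 ± 0.13), KO 6 h (10.84 ± 0.18), KO 3 h (10.64 ± 0.13), WT 0 h (10.28 ± 0.20), WT 24 h (10.23 ± 0.06), KO 0 h (9.88 ± 0.07) and KO 24 h (9.37 ± 0.16). Arrays of neighbours in that order overlapped for WT 6 h and WT 3 h, for KO 6 h and KO 3 h, and for WT 0 h and WT 24 h, and the other neighbours did not overlap. In the fit of group means, the test of whether the change itself differed between genotypes was not passed at any time: KO change minus WT change was -0.31 at 3 h (0.418), -0.22 at 6 h (0.687) and -0.45 at 24 h (0.12).

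The other probes of Kit lay near the array median, with means of 8.23 and 8.12, and averaging the kept probes reduced its KO minus WT difference to -0.40 at 3 h, -0.37 at 6 h and -0.46 at 24 h, each with an adjusted p under the threshold (0.0067, 0.0462 and 0.00265). The mean level of the mast cell markers was higher in KO than in WT without overlap at 0, 3 and 24 h, and the genotypes overlapped at 6 h. The mean of the 7 of 8 measured mast cell markers ranged, relative to all arrays, from 0.22 to 0.26 in KO and 0.09 to 0.16 in WT at 0 h, from 0.09 to 0.16 and -0.02 to 0.01 at 3 h, from -0.14 to 0.23 and -0.13 to 0.02 at 6 h, and from -0.23 to -0.17 and -0.29 to -0.24 at 24 h. By limma 0 of the 7 passed KO against WT at 0, 3 and 24 h, and 1 passed at 6 h, higher in KO. At the 4 times 2, 1, 5 and 0 had an unadjusted p under 0.05. The share of all genes at that level was not counted. At 6 h 6 of the 7 lay above 0, as did 47% of all genes. Their differences at 6 h ranged from -1.11 to 0.61, with a median of 0.28. Of all genes 4.43%, 4.23%, 0.631% and 8.35% passed at the 4 times. Single genes had KO and WT arrays without overlap in 44.5%, 32.7%, 43.8% and 59.5% of cases. At 24 h the median difference of the 7 was 0.01 and the highest 0.47. The part of mast cells in the differences of Kit was not tested. Of these markers Cpa3, the mast cell carboxypeptidase, had a mean signal of 8.91, Mcpt4, Tpsb2, Tpsab1 and Fcer1a lay between 8.25 and 8.31, Cma1 stood at 8.48 and Hdc, which makes histamine, at 12.53, and Ms4a2 was not among the genes kept. Kitl, the ligand of Kit, was dim. It read 8.55 and 8.65 in WT and 8.45 and 8.37 in KO at 0 h, and 8.44 and 8.37 in WT and 8.62 and 8.71 in KO at 24 h, so the order of the genotypes turned. It was higher in KO by 0.26 at 24 h (limma, adjusted p = 0.0308), a call lost on leaving out any of the 4 arrays compared (0.22 to 0.31, adjusted p = 0.0794 to 0.234).

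**Figure D2:**
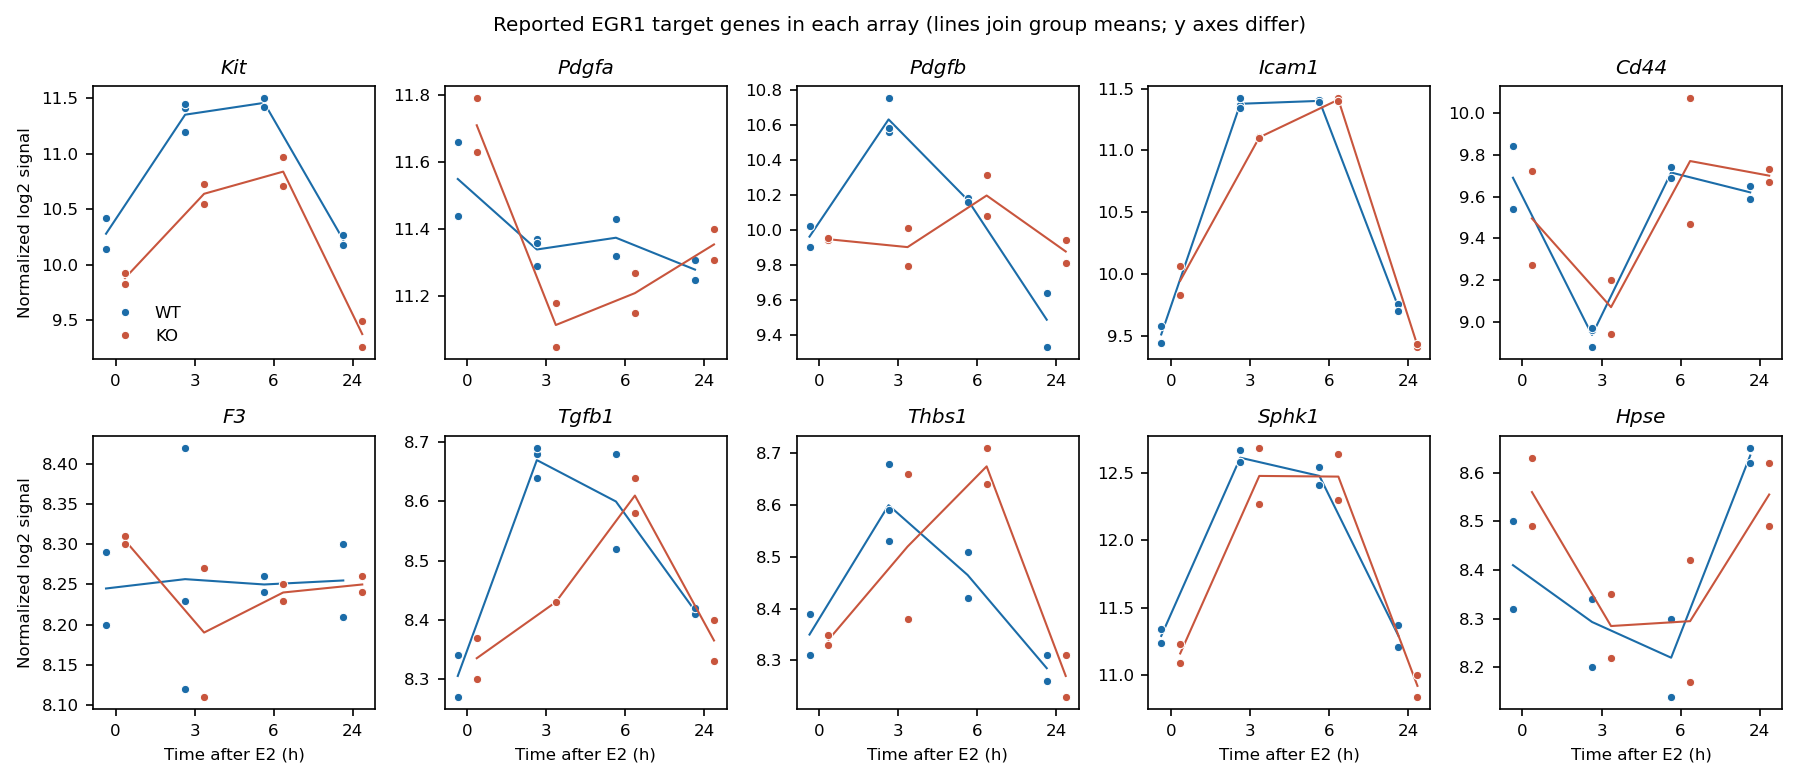
Normalized log2 signal of each gene (vertical axes, which differ between panels) against time after E2 in hours, with the 4 times evenly spaced; points are single arrays, 2 per group and 3 in WT at 3 h, and lines join group means. The Kit points of KO lie below those of WT at each time, and the Icam1 and Sphk1 points are higher at 3 and 6 h than at 0 and 24 h in both genotypes.

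Among the growth factors, Pdgfb gave a difference as large as that of Kit, at 3 h. Pdgfb and Pdgfa encode chains of platelet-derived growth factor, which acts on stromal cells and pericytes. The Pdgfb signal in WT was 9.90 and 10.02 at 0 h, 10.56, 10.58 and 10.75 at 3 h, 10.18 and 10.16 at 6 h, and 9.33 and 9.64 at 24 h. In KO it was 9.94 and 9.95, then 10.01 and 9.79, then 10.31 and 10.08, then 9.94 and 9.81. The WT arrays thus peaked at 3 h and ended below their start, while the KO arrays moved less. The other Pdgfb probe, dropped by the filter, had a mean of 8.01 and lay above the array median on 0 arrays. Its KO minus WT difference at 3 h was 0.03. At 3 h KO was lower by -0.73 ± 0.10, 1.66-fold (limma, adjusted p = 0.00197), and the call was kept with any array left out (-0.84 to -0.62). At 24 h KO was higher by 0.39 ± 0.11 (0.0427), a call lost without KO 24 h replicate 1 (0.33, 0.25), KO 24 h replicate 2 (0.45, 0.108) or WT 24 h replicate 1 (0.24, 0.388).

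From 0 h, Pdgfb rose in WT by 0.67 at 3 h (limma, adjusted p = 7.1e-05) and fell by 0.48 at 24 h (0.00344, and 0.0616 without WT 24 h replicate 1). In KO the changes were -0.04 (95% interval -0.28 to 0.19), 0.25 (0.01 to 0.48, adjusted p = 0.0846) and -0.07 (-0.31 to 0.17) at 3, 6 and 24 h. The KO and WT changes differed at 3 h, by -0.71 (95% interval -1.03 to -0.39, adjusted p = 0.0399). That call was lost without any 1 of 7 of the 9 arrays involved, all but KO 3 h replicate 1 and WT 0 h replicate 2 (-0.75 to -0.60, 0.0623 to 0.137), and with array weights (0.156) or in a fit of the compared groups alone (0.0861). At 3 h the mean of 10 endothelial markers ranged from -0.09 to 0.10 in KO and 0 to 0.12 in WT, and that of 6 pericyte markers from -0.05 to -0.04 in KO and -0.01 to 0.05 in WT. Their part in the difference of Pdgfb was not tested.

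Pdgfa moved little between genotypes and fell after E2. In WT its signal was 11.44 and 11.66 at 0 h, 11.29, 11.37 and 11.36 at 3 h, 11.43 and 11.32 at 6 h, and 11.31 and 11.25 at 24 h. In KO it was 11.79 and 11.63, then 11.18 and 11.05, then 11.27 and 11.15, then 11.40 and 11.31. The KO arrays lay below the WT arrays at 3 and 6 h and mixed with them at 0 and 24 h. At 3 h the difference was -0.23 (95% interval -0.39 to -0.06), which did not pass the test (limma, adjusted p = 0.118). In KO Pdgfa fell by 0.60 at 3 h (5.77e-05), 0.50 at 6 h (0.00019) and 0.36 at 24 h (0.00273). In WT it fell by 0.21 at 3 h (0.0382) and 0.27 at 24 h (0.021), and the change at 6 h was -0.17 (0.114). Those WT calls were lost without WT 0 h replicate 2 (-0.10 and -0.16), and also, at 3 h, without any WT 3 h array (-0.22 to -0.18) and, at 24 h, without either WT 24 h array (-0.30 and -0.24). The change at 6 h passed without WT 0 h replicate 1 (-0.28, 0.0236). The change at 3 h differed between genotypes by -0.39, which did not pass (0.125) except without WT 0 h replicate 2 (-0.50, 0.0319).

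Tgfb1 encodes transforming growth factor beta 1, a secreted regulator of growth and matrix. Its dim probe read 8.27 and 8.34 at 0 h, 8.68, 8.69 and 8.64 at 3 h, 8.68 and 8.52 at 6 h, and 8.41 and 8.42 at 24 h in WT, and 8.30 and 8.37, 8.43 and 8.43, 8.64 and 8.58, and 8.33 and 8.40 in KO. The highest group mean stood at 3 h in WT and at 6 h in KO. The change from 0 h was 0.37 at 3 h and 0.30 at 6 h in WT (limma, adjusted p = 7.6e-05 and 0.00106) and 0.10 (0.242) and 0.28 (0.00166) in KO. KO was lower than WT at 3 h by -0.24 ± 0.06 (0.0286), a call lost on leaving out any of the 5 arrays compared (-0.25 to -0.23, 0.0581 to 0.139). The difference between the changes at 3 h was -0.27 and did not pass (0.138).

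Icam1, an adhesion molecule of endothelium, epithelium and leukocytes that binds leukocyte integrins, showed the largest changes after E2 in WT among the 10 genes and a difference between genotypes that turned with time. In WT its signal was 9.44 and 9.58 at 0 h, 11.37, 11.34 and 11.42 at 3 h, 11.41 and 11.39 at 6 h, and 9.76 and 9.70 at 24 h. In KO it was 9.83 and 10.06, then 11.11 and 11.10, then 11.42 and 11.40, then 9.41 and 9.43. KO arrays lay above WT arrays at 0 h, below them at 3 and 24 h, and among them at 6 h. KO minus WT was 0.44 ± 0.07 at 0 h (limma, adjusted p = 0.00427), -0.27 ± 0.07 at 3 h (0.0329), 0.01 at 6 h (95% interval -0.15 to 0.16) and -0.31 ± 0.07 at 24 h (0.0177). The 0 h call was lost without KO 0 h replicate 2 (0.32) and in a fit of those groups alone (0.221). The KO 0 h arrays differed in macrophage and granulocyte markers, as given above, and the part of those cells was not tested. The 3 h call was lost on leaving out any of the 5 arrays (-0.29 to -0.25, 0.0573 to 0.165), and the 24 h call on leaving out any of the 4 (-0.34 to -0.27, 0.07 to 0.145). At 24 h the macrophage markers ranged from -0.47 to -0.32 in KO and -0.12 to 0.01 in WT, and the mean of 10 epithelial markers from 0.30 to 0.37 in KO and 0.61 to 0.62 in WT. Their part in the difference of Icam1 was not tested.

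The change of Icam1 from 0 h differed between genotypes at 3 and 24 h. It rose in WT by 1.87 at 3 h and 1.89 at 6 h (limma, adjusted p = 6.83e-10 and 1.46e-09), and in KO by 1.16 and 1.46 (5.34e-08 and 1.82e-08). At 24 h it was 0.22 above its start in WT (0.0259) and had fallen by 0.52 in KO (3.49e-05). The WT call at 24 h was lost without WT 0 h replicate 1 (0.15), WT 24 h replicate 1 (0.19) or WT 24 h replicate 2 (0.25). KO change minus WT change was -0.71 at 3 h (95% interval -0.92 to -0.50, adjusted p = 0.00451), -0.43 at 6 h (0.104) and -0.75 at 24 h (-0.96 to -0.53, 0.0014). Without KO 0 h replicate 2 the differences at 3 and 24 h were -0.60 (0.0305) and -0.63 (0.00671), and they passed with each other array left out, while the one at 3 h did not pass in a fit of the compared groups alone (0.0695). The difference at 6 h passed without KO 0 h replicate 1 (-0.54, 0.0355) or WT 0 h replicate 2 (-0.50, 0.0247). Of the integrin subunits that bind ICAM1 and the related molecules listed with it, Icam2 was lower in KO at 3 h, reading 9.39 and 9.67 against 9.91, 9.99 and 10.02 (-0.44, 0.0147). That call was lost without KO 3 h replicate 1 (-0.30, 0.0791) or WT 3 h replicate 3 (-0.42, 0.0567) and with array weights (0.0659).

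Cd44 encodes the main cell-surface receptor for hyaluronan. Its brightest probe, ILMN_1223697, read 9.84 and 9.54 at 0 h, 8.96, 8.88 and 8.97 at 3 h, 9.69 and 9.74 at 6 h, and 9.59 and 9.65 at 24 h in WT, and 9.27 and 9.72, 8.94 and 9.20, 10.07 and 9.47, and 9.67 and 9.73 in KO. Values dipped at 3 h in both genotypes, and the KO replicates lay far apart at 6 h. The dip was -0.75 in WT (limma, adjusted p = 0.00111) and -0.42 in KO (0.065), where it passed without KO 0 h replicate 1 (-0.65, 0.0174) or KO 3 h replicate 2 (-0.56, 0.0473). KO minus WT did not pass at any time, with 95% intervals of -0.57 to 0.17 at 0 h, -0.21 to 0.47 at 3 h, -0.31 to 0.43 at 6 h and -0.29 to 0.45 at 24 h. In KO at 6 h the change from 0 h was 0.28 (0.218), and 0.58 (0.00969) without KO 6 h replicate 2. The probes of Cd44 disagreed: ILMN_3114585, with a mean of 9.32, changed by -0.33 at 3 h in WT (0.0701), the other 7 lay near the array median, and the mean of the kept probes changed by -0.08 (0.302).

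Has1, a synthase that makes the hyaluronan bound by CD44, gave the largest difference among the 30 measured of 35 listed receptors, ligands and partners. In WT it read 8.09 and 8.15 at 0 h, 10.12, 9.88 and 9.91 at 3 h, 9.29 and 9.30 at 6 h, and 8.26 and 8.20 at 24 h. In KO it read 8.30 and 8.27, then 8.94 and 8.75, then 9.17 and 9.08, then 8.23 and 8.14. The 3 h peak of WT stood above every KO array. KO was lower by -1.13 at 3 h (limma, adjusted p = 1.43e-05), and the KO and WT changes from 0 h differed by -1.29 (0.000124). Both calls were kept with any array left out (-1.22 to -1.03 and -1.39 to -1.19).

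Thbs1 and F3 encode matrix and clotting proteins and gave no called difference between genotypes. Thrombospondin 1, from Thbs1, is a matrix glycoprotein that activates latent TGF-beta. Its probe read 8.31 and 8.39 at 0 h, 8.59, 8.53 and 8.68 at 3 h, 8.42 and 8.51 at 6 h, and 8.26 and 8.31 at 24 h in WT, and 8.35 and 8.33, 8.66 and 8.38, 8.64 and 8.71, and 8.31 and 8.23 in KO. The highest values stood at 3 h in WT and at 6 h in KO. Thbs1 rose by 0.25 at 3 h in WT (limma, adjusted p = 0.0137), a call lost without WT 0 h replicate 1 (0.21, 0.0934) or WT 3 h replicate 3 (0.21, 0.0536), and by 0.34 at 6 h in KO (0.00374). In KO at 3 h the change was 0.18 (0.102), and 0.32 (0.00457) without KO 3 h replicate 2. The KO arrays exceeded the WT arrays at 6 h by 0.21, which did not pass (0.328). F3, tissue factor, which starts the extrinsic clotting pathway, read between 8.11 and 8.42 on all 17 arrays and lay above the array median on 14. No comparison of F3 passed the test, and its KO minus WT intervals were -0.12 to 0.24, -0.23 to 0.10, -0.19 to 0.16 and -0.18 to 0.18 at the 4 times.

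Sphk1 and Hpse encode enzymes. Sphingosine kinase 1, from Sphk1, makes the lipid messenger sphingosine-1-phosphate. In WT its signal was 11.24 and 11.34 at 0 h, 12.58, 12.67 and 12.58 at 3 h, 12.54 and 12.41 at 6 h, and 11.21 and 11.37 at 24 h. In KO it was 11.23 and 11.09, then 12.27 and 12.68, then 12.30 and 12.64, then 11.00 and 10.84. Both genotypes rose to the same range at 3 and 6 h and returned by 24 h. The rise was 1.32 and 1.18 in WT (limma, adjusted p = 5.98e-07 and 5.05e-06) and 1.32 and 1.32 in KO (2.49e-06 and 1.74e-06). The difference between the KO and WT changes at 3 h was 0, with a 95% interval of -0.38 to 0.37. At 24 h the KO arrays lay below the WT arrays by -0.37 (95% interval -0.65 to -0.09), which did not pass (0.102) but passed with array weights (0.00736) and in a fit of the arrays compared (0.0107). The paralogue Sphk2 read 10.22 and 10.16 in WT and 9.85 and 9.96 in KO at 0 h, a difference of -0.29 (0.0282) that was lost without KO 0 h replicate 1 (-0.23), KO 0 h replicate 2 (-0.34) or WT 0 h replicate 1 (-0.26), with array weights (0.0724), with an intensity trend (0.0518) and in a fit of those arrays alone (0.235).

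Heparanase, from Hpse, cleaves heparan sulfate chains of the matrix. Its dim probe read 8.32 and 8.50 at 0 h, 8.34, 8.20 and 8.34 at 3 h, 8.30 and 8.14 at 6 h, and 8.62 and 8.65 at 24 h in WT, and 8.49 and 8.63, 8.22 and 8.35, 8.42 and 8.17, and 8.62 and 8.49 in KO. The lowest values of each genotype fell at 3 or 6 h and lay near the array median. In KO Hpse fell by 0.27 at 3 h (limma, adjusted p = 0.0394) and 0.27 at 6 h (0.0378), and in WT the changes were -0.11 (0.332) and -0.19 (0.137). The KO calls were lost without KO 0 h replicate 2 (-0.20 and -0.19), at 3 h without KO 3 h replicate 1 (-0.21) and at 6 h without KO 6 h replicate 2 (-0.14), and with each array centred on the median of the kept genes (-0.24 and -0.23, 0.0658 and 0.0683) or the mean of both probes used (-0.09 and -0.11). KO minus WT did not pass at any time, with 95% intervals of -0.06 to 0.36, -0.20 to 0.19, -0.14 to 0.28 and -0.29 to 0.13.

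**Figure D3:**
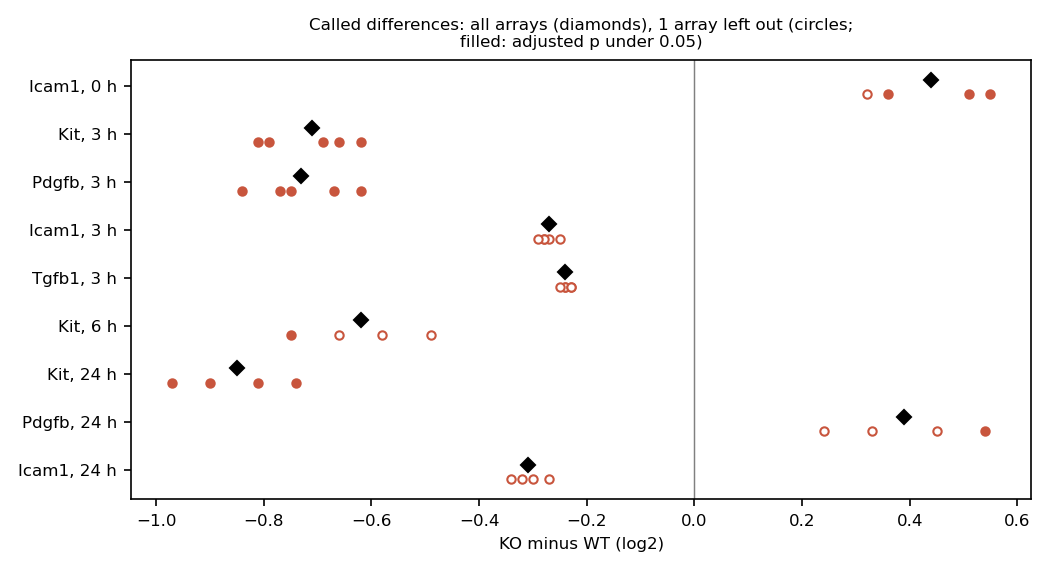
KO minus WT (log2, horizontal axis) for the 9 called differences, with all arrays (diamonds) and with 1 array of the compared groups left out (circles, filled where the adjusted p stayed under 0.05). All circles are filled for Kit at 3 h and 24 h and for Pdgfb at 3 h, and none are for Icam1 and Tgfb1 at 3 h and Icam1 at 24 h.

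The second question was how the 10 genes changed from 0 h after E2 in each genotype. In WT 8 passed the test at 3 h, 6 higher and 2 lower, where 46.7% of all genes passed, 4 passed at 6 h, all higher (44.0% of all genes), and 3 at 24 h, 1 higher and 2 lower (37.9%). In KO 5 passed at 3 h, 3 higher and 2 lower (40.4%), 7 at 6 h, 5 higher and 2 lower (44.9%), and 3 at 24 h, all lower (45.7%). Kit, Icam1 and Sphk1 rose at 3 and 6 h in both genotypes. The median change of the 10 genes at 3 h was 0.31 in WT and 0.03 in KO, and at 6 h 0.16 and 0.28, beside medians over all genes between -0.01 and 0. The 3 later times of a genotype share its 0 h arrays. The difference between KO and WT changes passed for 2 of the 10 at 3 h, Pdgfb and Icam1, both with the lower change in KO, where 1.09% of all genes passed, and for 1 at 24 h, Icam1 (7.27%). At 6 h 0 passed (limma, 0.400% of all genes). An unadjusted p under 0.05 was found for 2, Icam1 and Pdgfa, and the share of all genes at that level was not counted.

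**Figure D4:**
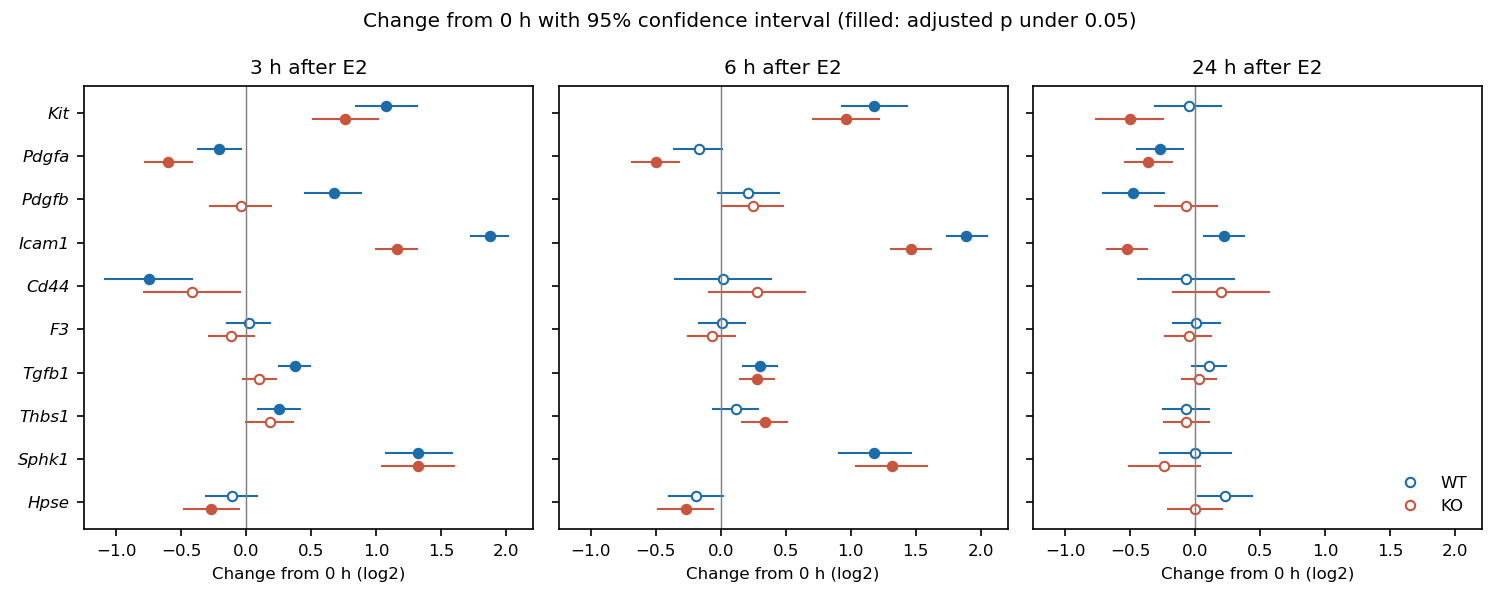
Change from 0 h of each gene (log2, horizontal axis) at 3, 6 and 24 h after E2 in WT (blue) and KO (red), with 95% confidence intervals from limma; filled points have an adjusted p under 0.05. At 3 h the WT and KO points of Icam1 stand at 1.87 and 1.16 and those of Pdgfb at 0.67 and -0.04, while those of Sphk1 are both at 1.32.

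Among 30 other genes named as EGR1 targets, 20 were measured, and 3, 4, 0 and 4 passed KO against WT at 0, 3, 6 and 24 h (limma), where 4.43%, 4.23%, 0.631% and 8.35% of all genes passed. At 6 h 5 of the 20 had an unadjusted p under 0.05, a level at which the share of all genes was not counted. The related factors Egr3 and Egr2 were lower in KO at 3 h. Egr3 read 10.27 and 10.38 in KO against 11.41, 11.28 and 11.10 in WT (-0.94, limma, adjusted p = 0.00332), and this call was kept with any array left out (-1.02 to -0.87) and with the mean of its kept probes (-0.50). Egr2 read 8.97 and 8.94 against 10.05, 9.85 and 9.65 (-0.90, 0.0128), a call lost without KO 3 h replicate 2 (-0.88, 0.0935). Igf2, which encodes an insulin-like growth factor, was higher in KO at 0 h (1.35, 0.00122), 3 h (0.74, 0.0208) and 24 h (0.97, 0.00458), and the 3 h call was lost without KO 3 h replicate 1, KO 3 h replicate 2 or WT 3 h replicate 3 (0.58 to 0.76, 0.0556 to 0.109) and with array weights (0.0664). Mmp14, a membrane-bound matrix protease, was lower in KO at 0 h (-0.56, 0.00367, and 0.0537 without KO 0 h replicate 2) and at 24 h (-0.51, 0.0037). Flt1, a receptor for vascular endothelial growth factor, was higher in KO at 24 h, at 11.61 and 11.56 against 10.87 and 10.92 (0.69, 0.000896; 0.33 with the mean of its kept probes). Ccnd1, the cell-cycle regulator cyclin D1, was lower in KO at 0 h (-0.51, 0.0133) and 3 h (-0.54, 0.00644) and higher at 24 h (0.47, 0.0132). Its 0 h call was lost without KO 0 h replicate 2 (-0.46) or WT 0 h replicate 1 (-0.51), its 3 h call without KO 3 h replicate 2 (-0.39), and its 24 h call without any of the 4 arrays (0.41 to 0.52). In a fit of the 0 h arrays alone the 0 h calls of Igf2, Mmp14 and Ccnd1 were all lost (adjusted p = 0.0649, 0.138 and 0.0914).

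Of these 20 genes 16 passed at 3 h in WT (46.7% of all genes), 12 higher and 4 lower, led by Ptges (3.43), Mad2l1 (3.04), Egr3 (2.60) and Cdkn1a (2.15), and 13 passed in KO (40.4%), 9 higher and 4 lower, led by Ptges (3.25), Mad2l1 (3.15), Vegfa (2.20) and Gadd45a (2.13). Of the 30 measured receptors, ligands and partners, 2, 6, 0 and 1 passed KO against WT at 0, 3, 6 and 24 h (limma), beside the same 4.43%, 4.23%, 0.631% and 8.35% of all genes. At 6 h 7 of the 30 had an unadjusted p under 0.05, again without a count over all genes to set beside it. Sdc4, a heparan sulfate proteoglycan on the cell surface, was higher in KO at 0 h, at 12.40 and 12.27 against 11.39 and 11.82 (0.73, limma, adjusted p = 0.00416), a call lost in a fit of those arrays alone (0.188). At 3 h Thbs2, a relative of Thbs1, was lower in KO by -0.70 (0.0166), lost without KO 3 h replicate 2 (-0.63) or WT 3 h replicate 3 (-0.59), and Cd47, a receptor for thrombospondin 1, was higher by 0.46 (0.0445), lost on leaving out any of the arrays but KO 3 h replicate 1, and down to 0.23 without KO 3 h replicate 2. Pdgfra, the receptor for the product of Pdgfa, fell after E2 in both genotypes, by 1.55 at 3 h in WT (4.49e-06) and by 1.57 in KO (1.46e-05). It is 1 of 8 stromal fibroblast markers, of which 8 fell in WT at 3 h (median -1.43, 46.7% of all genes called) and 4 in KO (median -0.44, 40.4%). The mean of the 8 ranged from 0.28 to 0.92 at 0 h and -0.70 to -0.41 at 3 h in WT, and from 0.09 to 0.32 and -0.39 to -0.19 in KO. Their part in the fall of Pdgfra was not tested.

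Across the 17 arrays, which share the time course, the 10 genes fell into patterns that are given as a description. Icam1 and Sphk1 correlated at a Pearson r of 0.96, Kit and Sphk1 at 0.88, Kit and Icam1 at 0.87, and Hpse and Sphk1 at -0.79. The genes most like each by r over all genes tested were Ripor2 (0.958) and Mras (0.956) for Kit, Slc6a13 (0.981) and Fbxo2 (0.978) for Icam1, and Hmgxb3 (0.983) and Ackr2 (0.979) for Sphk1. For Cd44 they were Acap3 (0.942) and Ap1g2 (0.939), for Pdgfa Zfp595 (0.929) and Lpar3 (0.919), and for Tgfb1 Ttpal (0.921) and Ret (0.916). Pdgfb was most like Rnf113a2 (0.897), Thbs1 like Emp1 (0.925), Hpse like Glrx (0.898), and the nearly flat F3 like 1190005I06Rik (0.826).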

How the data were processed

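Uterine RNA was hybridised to bead arrays that were read with BeadStudio, per the submitters' processing notes (version not stated). The authors deposited log2 values that, as the table itself shows, had been quantile normalized between arrays: all 17 columns share 1 set of quantiles, with a median of 8.20 and a range of 7.39 to 15.94. No source used here states the background correction or log offset, and differences of dim probes can be understated.

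Of 45281 probes, the platform annotation gave 34885 1 symbol and 18 several, and 10378 were unlisted. RefSeq (GRCm38.p6) matched 34807 by Entrez number and changed 0 symbols. Probes were kept where 2 or more of the 17 arrays put them above their median, and the brightest stood for its gene. limma 3.58.1 (R 4.3.3) fitted 1 mean per group to the 17 arrays, with empirical Bayes moderation (9 residual and 4.56 prior degrees of freedom), 95% intervals, two-sided tests and Benjamini-Hochberg adjustment over 14737 genes, at a threshold of 0.05. The fitting code was tested on simulated data. Genes said to pass, rise, fall or be called have an adjusted p under that threshold. Unadjusted p-values under 0.05 were counted within the lists only, so those counts have no share of all genes beside them. Reading arrays has no sequencing depth, and the number of arrays limits the precision.

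The 10 members, the gene lists and the tests were chosen with earlier results of these data known. All members were described. Of each further list up to 4 genes with the largest change past the threshold could be named in each comparison, as could 2 genes most like each member. Replicate numbers were not taken to pair the samples. The alternatives were 2 other filters, an intensity trend, array weights, only the arrays compared, 2 blocks, the mean of the kept probes, median centring and each array left out in turn.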

Additional observations from a re-analysis of the deposited data

Results flagged for a closer look

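The change from 0 h differed between KO and WT, by the interaction test of limma, for 2 of the 10 genes. KO change minus WT change was -0.71 for Pdgfb at 3 h (adjusted p = 0.0399), -0.71 for Icam1 at 3 h (0.00451) and -0.75 for Icam1 at 24 h (0.0014). As given above, the Pdgfb call depended on single arrays. Neither 3 h call passed in a fit of the compared groups alone.

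Among the other genes named, the same test gave -1.33 for Egr1 at 3 h (adjusted p = 0.0241), -1.08 for Egr3 at 3 h (0.0325), -0.79 for Sdc4 at 3 h (0.0349), -1.29 for Has1 at 3 h (0.000124), 0.97 for Ccnd1 at 24 h (0.00269) and 0.45 for Kitl at 24 h (0.0164). The calls of Has1 and Ccnd1 were kept with any array left out. Egr1 was called without 4 of the 9 arrays involved, Egr3 without 3 of 9 and Sdc4 without 2 of 9, and Kitl without 5 of 8. With array weights the calls of Egr1, Egr3 and Sdc4 were lost (0.144, 0.0889 and 0.0826). Without WT 0 h replicate 1 the values were -1.20 for Egr1, -0.84 for Egr3 and -0.58 for Sdc4.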

How the results depend on the processing

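Of 130 member values 42 were called, and 26 of these were called under every alternative. None reversed. Kit at 3 and 24 h and Pdgfb at 3 h, KO against WT, were called in all (adjusted p = 0.0029 to 0.0423, 9.07e-06 to 0.0151 and 0.00151 to 0.0289). For Pdgfb the mean of the kept probes was no separate check, because the filter dropped its other probe. The cause of the losses was not tested. With 1 array left out, the count of members called KO against WT ranged from 0 to 2 at 0 h (1 with all arrays), was 2 at 3 h in each case (4), and ranged from 0 to 1 at 6 h (1) and 1 to 2 at 24 h (3). In WT it ranged from 0 to 2 at 24 h (3), and for the interaction from 1 to 3 at 3 h (2) and 0 to 1 at 6 h (0). Array weights gave 2 members KO against WT at 3 h and 1 for the interaction at 3 h. Only the arrays compared gave 0, 2 and 0 at 0, 3 and 6 h KO against WT, 1 in WT at 24 h and 0 for the interaction at 3 h. The replicate block gave 2 at 0 h and 2 at 3 h KO against WT, 1 for the interaction at 3 h and 2 at 24 h, adding Kit at 0 h (0.0198) and for the interaction at 24 h (0.0404). The block of title letters gave 1 for the interaction at 3 h. Same-numbered KO and WT arrays did not deviate together (r = -0.19 at 0 h, -0.05 and 0.05 at 3 h, -0.11 at 6 h, -0.14 at 24 h), so the numbers were not taken as pairs. At 3 h same-numbered KO and WT arrays carry different title letters, and pairing by letter was not checked this way.

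Counts over all genes moved too. Of 653, 624, 93 and 1231 called KO against WT at 0, 3, 6 and 24 h, array weights left 367, 246, 159 and 3242, and only the arrays compared 8, 351, 0 and 3047. The replicate block gave 274 at 3 h. With 1 array left out they ranged over 183 to 1720, 198 to 1139, 0 to 589 and 392 to 443, and in WT at 24 h (5582) over 3681 to 5670. Interaction counts of 161, 59 and 1071 ranged over 24 to 556, 9 to 497 and 375 to 2258. At 3 h array weights gave 46 and only the arrays compared 16, and at 6 h only the arrays compared gave 1 and the mean of the kept probes 37. F3, Hpse, Thbs1 and Tgfb1 had mean signals of 8.25 to 8.48 against an array median of 8.20, which limits what they can show.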
